A study of Nothobranchius furzeri with 39 samples.

Results

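Ion channels set the electrical behaviour of cells, and their RNA was followed here in the brain and liver of Nothobranchius furzeri, the turquoise killifish, an annual fish with a short natural life span. Voltage-gated and related channels were taken as the genes whose name in the count tables begins with kcn, scn plus a digit, cacn, hcn plus a digit, clcn, trpa, trpc, trpm or trpv plus a digit, ryr or itpr. The rule found 81 of 25099 gene names in the table of fish aged 2 months, and 53 of 16383 in each of the 2 tables of fish aged 3 months. Of the 81 genes, 62 encode a pore and 19 encode an auxiliary or partner protein. No gene name with ryr and a single one with scn, scn2b, met the rule. Another 95 channel genes are listed under LOC identifiers and are not members. They include every sodium channel alpha gene and every ryanodine receptor found through the RefSeq gene table of assembly NfurGRZ-RIMD1, and they are used only for comparison.

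The samples come from a study of mutants in DNA repair and in the sensing of cytosolic DNA. Brains and livers of fish aged 2 months came from atm cgas double mutants, atm mutants and wild-type (WT) fish. Each of these groups held 4 libraries from 2 males and 2 females, apart from atm mutant liver, for which 2 female libraries and 1 male library were used. At 3 months, livers came from 3 blm mutant and 4 WT males, and brains from 3 female and 2 male cgas mutants and from 1 WT fish of each sex. The gene atm encodes a kinase activated by DNA breaks, blm a DNA helicase, and cGAS, listed in the tables as mb21d1, an enzyme that is switched on by DNA in the cytosol. The alleles and the strain are not given in the sources used here, and nothing in the labels says whether fish of a group were siblings.

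Voltage-gated potassium, calcium and sodium channels open when the membrane depolarises. Inward rectifier and K2P potassium channels hold the resting potential, HCN channels carry pacemaker currents, and CLC proteins move chloride through the plasma membrane or in endosomes and lysosomes. TRP channels respond to chemical, mechanical or lipid signals, and IP3 receptors release calcium from the endoplasmic reticulum. Neurons depend on these proteins for firing and transmitter release, while liver cells, which do not fire action potentials, use channels for calcium signals, volume control and transport.

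Total counts per library were 18629542 to 39277517 in the 12 brains and 24998412 to 36815981 in the 11 livers at 2 months. At 3 months they were 19503167 to 24094789 in livers and 10997817 to 17278458 in brains, where the tables hold part of the genes. Levels are given as CPM, the count of a gene scaled to a fixed total per library with TMM factors and not divided by transcript length, so they are compared between samples and not between genes. Tissue identity followed the labels: all 15 tested neuron markers were called higher in WT brain and all 11 hepatocyte markers higher in WT liver. The RNA of atm was at 19.1 to 27.1 CPM in double mutant brains and 21.5 to 23.6 CPM in atm mutant brains, against 27.4 to 37.3 CPM in WT brains. Some libraries stood apart in mb21d1. It was at 3.93 CPM in the brain and 4.35 CPM in the liver of double mutant male 4, against at most 0.423 CPM in the other double mutants, and at 6.88 CPM in the liver of WT male 1. The liver of double mutant male 4 also had 5035 CPM of the hepatocyte gene hpx, against 43880 to 68660 CPM in the other males and 546.6 to 4904 CPM in the females. At 3 months mb21d1 reached 17.2 and 4.01 CPM in blm mutants L3 and L30 and 17.6 CPM in the brain of the WT female, against at most 1.27 CPM in the other libraries of those 2 tables. The 3-month brains also held far more muscle RNA than the 2-month brains, as described with the cgas mutants.

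In WT fish, the channel genes separated brain from liver. Of 81 members, 76 passed the filter on low counts over the 8 WT libraries, 62 of them were called higher in brain and 8 higher in liver (edgeR quasi-likelihood test, Benjamini-Hochberg adjusted p under 0.05 over 19757 genes). Over all genes tested, 42.8% were called higher in brain and 33.3% higher in liver. The median log2 fold change of brain over liver was 5.03 over the 76 tested members and 0.236 over all genes. It was also 5.03 when the 6 tested members without a count in any WT liver were set to their lower bound. This step could not move the median, because each of those bounds lies above it. The filter is passed by reads in 1 tissue alone, so a member seen in brain only enters the test through the tissue where it is high. Among the 35 members that passed the filter within brain and within liver, 21 were called higher in brain and 8 higher in liver, against 31.5% and 40.2% of the 15353 genes of that kind, and their median log2 fold change was 1.53, against -0.184 over those genes. Among the 5 members not tested were kcnj1, kcnj15, kcnk18 and trpa1. Whether a difference reflects more cells of a type or more RNA per cell cannot be told apart in bulk tissue.

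**Figure D1:**
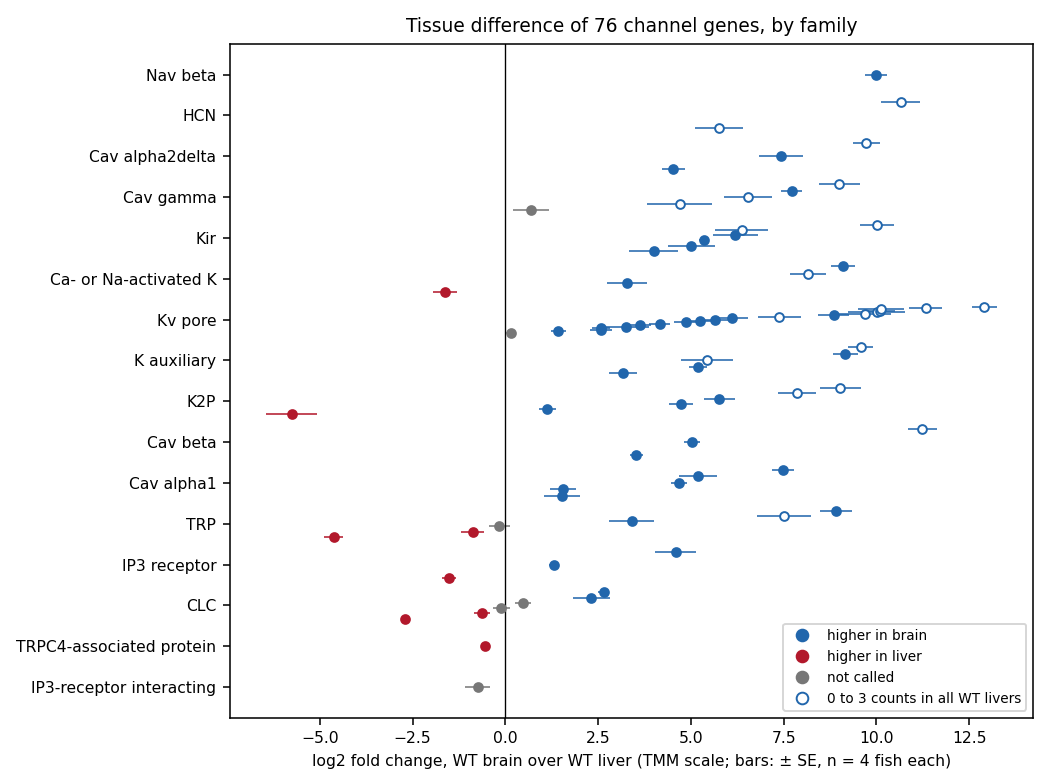
Log2 fold change of WT brain over WT liver (x axis) for the 76 tested channel genes, grouped by family (rows), with bars for ± SE and n = 4 fish per tissue. Filled points right of 0 are genes called higher in brain, those left of 0 in red are called higher in liver, grey points were not called, and open points have 0 to 3 counts over all WT livers. The lowest value is -5.76 for kcnk5. Open points are fitted values that depend on few or no liver reads, such as kcnh1 at the right end, for which only a bound of at least 524-fold is given.

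For the tissue comparison, CPM were scaled over both tissues together. Sodium channels were represented by scn2b, a beta subunit that modifies gating and surface expression. The 4 WT brains had 98.8, 124.8, 94.3 and 87.6 CPM of scn2b, against 0.132, 0.124, 0 and 0.102 CPM in the 4 WT livers. All brains were far above all livers, at a log2 fold change of 9.98 (SE 0.298, adjusted p = 8.8e-08). Among the LOC channel genes, 7 sodium channel alpha genes and 5 beta genes were tested, and each was called higher in brain, with scn1lab at a log2 fold change of 7.97 and scn8aa at 10.8.

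Calcium channel genes followed the same direction. All 5 alpha1 genes, which encode the pore, were called higher in brain, as were all 3 alpha2delta, all 3 beta and 4 of 5 gamma genes, which encode auxiliary subunits. The P/Q-type gene cacna1a, whose channel triggers transmitter release, had 230.4, 336, 162.7 and 144 CPM in WT brains, against 2.52, 5.5, 9.05 and 7.24 CPM in WT livers, a log2 fold change of 5.19 (SE 0.506, adjusted p = 2.8e-05). The brains differed among themselves, with the males (1 and 2) above the females (3 and 4), but none came near a liver. The L-type gene cacna1c averaged 83.8 ± 37.9 CPM in WT brains and 0.475 ± 0.0714 CPM in WT livers (SD, n = 4 each). The beta subunit gene cacnb4 had a single read over all WT livers, and its brain mean of 51.5 CPM was 3030 times the liver rate, with a counting interval of 544 to 119700 (95%, exact Poisson, counting error only). For cacng2, stargazin, a partner of AMPA receptors, the same ratio was 558.9 on 3 liver reads (191 to 2710). Smallest in the group were cacna1s, the skeletal muscle isoform, at a log2 fold change of 1.53 (SE 0.481, adjusted p = 0.019) and cacna1f, the retinal isoform, at 1.56 (SE 0.348, adjusted p = 0.0035). With TMM scaling the exception was cacng6, at 0.69 (SE 0.493, adjusted p = 0.229).

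Of the 19 voltage-gated potassium channel (Kv) pore genes, 18 were called higher in brain. The ether-a-go-go gene kcnh1 had 26.9, 27.1, 28 and 24.9 CPM in WT brains and no read in any WT liver, so it was at least 524-fold higher in brain, with the liver set to a floor of 3 counts over the group. With the same floor, brain was at least 168.5-fold higher for kcnq3, a subunit of the M-current that restrains repetitive firing, at least 78.9-fold higher for the silent subunit gene kcnv1 and at least 68.8-fold higher for kcnh8. For kcnc1, the Kv3-type gene of fast-spiking neurons, the means were 66.6 ± 2.18 CPM in WT brains and 2.3 ± 1.28 CPM in WT livers, and the A-type gene kcna4 had 31.8 ± 6.07 and 0.073 ± 0.0966 CPM.

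Potassium channels of the other classes were mixed. All 6 tested inward rectifiers were called higher in brain. The gene kcnj10 encodes Kir4.1, through which astroglia buffer potassium, and had 180.7, 183.3, 194.4 and 189.4 CPM in WT brains, against 4.15, 4.82, 4.82 and 4.48 CPM in WT livers, a log2 fold change of 5.35 (SE 0.143, adjusted p = 8.0e-08). The G-protein-gated channel gene kcnj3 had 2 reads over the WT livers and a ratio of 1198 (332 to 9896). Among K2P genes 5 of 6 were called higher in brain, including kcnk10 at 29.4 CPM in brain on 3 liver reads, and kcnk5 was called higher in liver. Of the calcium-activated channels, kcnma1, the large-conductance BK pore, averaged 57.6 ± 7.17 CPM in WT brains and 0.104 ± 0.0845 CPM in WT livers, kcnn1 and kcnn2 were called higher in brain, and kcnn4 was called higher in liver. All 5 auxiliary genes were called higher in brain, with kcnip1, which binds Kv4 channels, at 70.9 ± 8.21 CPM in WT brains and 0.111 ± 0.096 CPM in WT livers. Both HCN genes were called higher in brain, hcn4 at least 102.9-fold.

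With TMM scaling, intracellular channels, transporters and TRP genes were split between the tissues. The IP3 receptor genes itpr1 and itpr3 were called higher in brain, at log2 fold changes of 4.59 (SE 0.554, adjusted p = 1.0e-04) and 1.3 (SE 0.137, adjusted p = 4.3e-05), and itpr2, the main hepatocyte isoform in mammals, was called higher in liver. For clcn4 the log2 fold change was 2.66 (SE 0.15, adjusted p = 1.1e-06) and for clcn1, the muscle chloride channel, 2.31 (SE 0.496, adjusted p = 0.0029), while clcn3 and clcn6 were not called, at -0.11 and 0.48. The TRP genes called higher in brain were trpc1, trpc6 and trpm5, and trpm2 was not called (-0.16, SE 0.274). The IP3-receptor interacting gene itprip was not called either (-0.74, SE 0.336, adjusted p = 0.0746).

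The 8 genes called higher in liver fell into 2 sets by their size. The first held kcnk5, clcn5 and trpv4. The pH- and volume-sensitive K2P gene kcnk5 had 1.16, 0.882, 0.882 and 0.761 CPM in WT brains, against 10.2, 91.3, 41.8 and 56.3 CPM in WT livers, a log2 fold change of -5.76 (SE 0.676, adjusted p = 8.6e-05). The lowest liver, of WT male 1, was still above every brain. The osmosensitive gene trpv4 had 0.648, 0.504, 0.467 and 0.537 CPM in WT brains, against 15.3, 22.2, 8.07 and 11.2 CPM in WT livers (log2 fold change -4.63, SE 0.262, adjusted p = 1.1e-06). For clcn5, an endosomal chloride-proton exchanger, the values were 6.44, 7.38, 6.73 and 7.4 CPM in WT brains, against 39.9, 44.3, 44.8 and 52.4 CPM in WT livers (-2.69, SE 0.122, adjusted p = 3.5e-07). These 3 genes were also called higher in liver when libraries were scaled by their totals alone, at -3.7, -2.58 and -0.65.

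The second set, with smaller folds, was kcnn4 (-1.64, SE 0.322, adjusted p = 0.0018), itpr2 (-1.52, SE 0.177, adjusted p = 8.2e-05), trpm7 (-0.88, SE 0.32, adjusted p = 0.0338), clcn7 (-0.64, SE 0.21, adjusted p = 0.0234) and trpc4ap (-0.54, SE 0.13, adjusted p = 0.0054). Among them, trpc4ap encodes a TRPC4-associated protein and not a pore. All 5 kept the liver direction under TMM, RLE and upper quartile scaling and in DESeq2. These settings all assume that a typical gene is unchanged, so their agreement is not independent. Their median log2 fold changes of all genes were 0.236 to 0.35. Scaling by library totals alone, without that assumption, moved this median by 2.03. Under it these 5 genes turned to the brain side, at 0.38, 0.53, 1.16, 1.4 and 1.5. Of these, kcnn4 was not called in either direction (adjusted p = 0.369 by edgeR). The direction of these 5 genes thus depends on the scaling, and the settings cannot decide it. With library totals, members not called with TMM were also called higher in brain: clcn3 (1.94), clcn6 (2.525), trpm2 (1.87), itprip (1.3) and cacng6 (2.75). The largest of the set in reads was trpm7, a magnesium-permeable channel with a kinase domain. WT brains had 45.8, 52.9, 41.9 and 39.6 CPM of it, against 47.6 and 57.6 CPM in the livers of WT males and 127.2 and 133.2 CPM in those of WT females, so the tissues overlapped. With fish as a block, which pairs the brain and liver of a fish, trpm7 was no longer called (-0.88, adjusted p = 0.0742), and 7 members were called higher in liver. Its call was also lost without the brain or the liver of WT female 3 or 4 (-0.66 to -0.76, adjusted p of 0.0817 to 0.123) and with RLE scaling (adjusted p = 0.058). The lysosomal exchanger gene clcn7 had 18.2, 18, 17.4 and 17 CPM in WT brains, against 34.5, 17.1, 26.7 and 31.6 CPM in WT livers, and was no longer called without the liver of WT male 1 (-0.4, adjusted p = 0.0805) or WT female 4 (-0.51, adjusted p = 0.0878), without any 1 brain (adjusted p of 0.0501 to 0.0651) or by DESeq2.

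**Figure D2:**
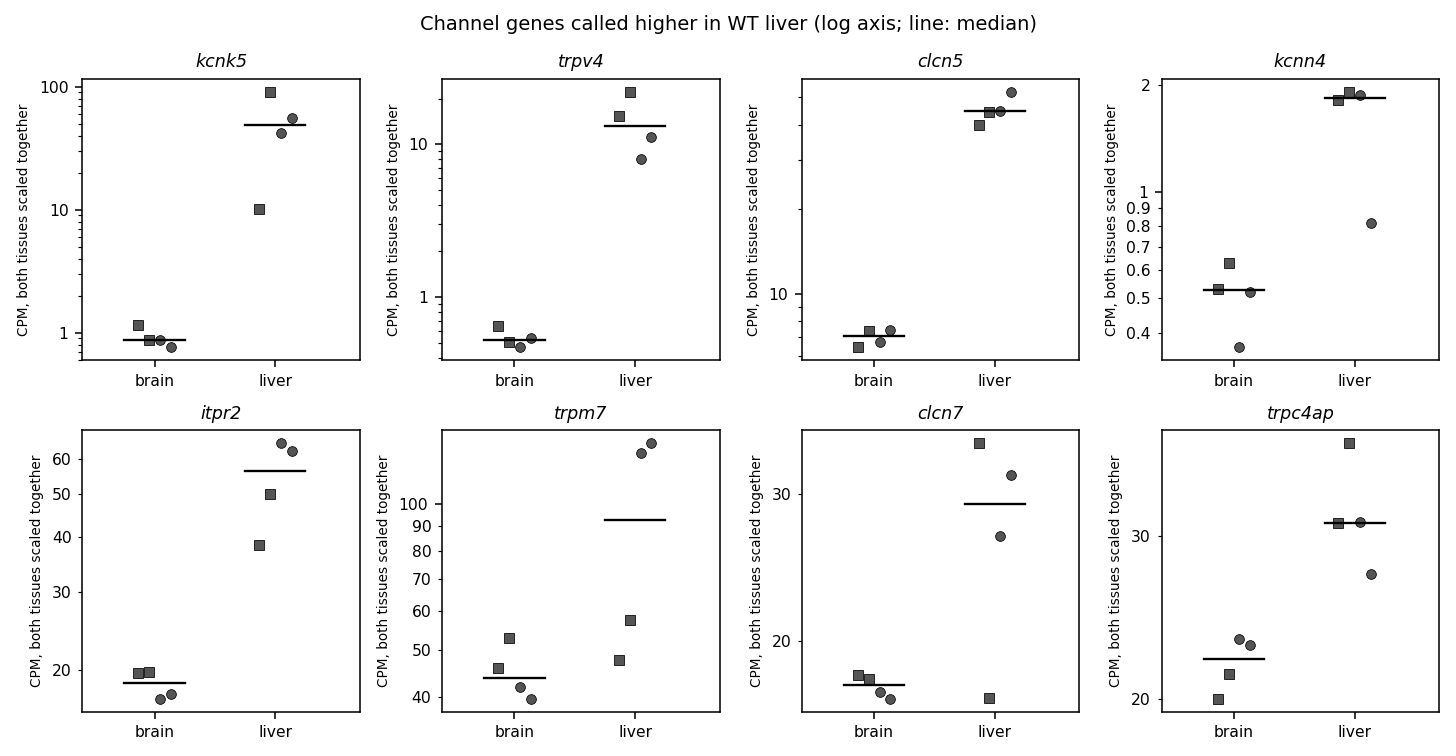
Tissue-scaled CPM (y axis, log scale) of the 8 members called higher in liver, in the brain and liver of 4 WT fish (squares males, circles females, line at the median). Among them, trpc4ap encodes a TRPC4-associated protein and not a pore. For kcnk5, trpv4 and clcn5 every liver lies above every brain; for trpm7 and clcn7 the lowest liver, at 47.6 and 17.1 CPM, lies within the brain range.

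Of the LOC channel genes, 72 were called higher in brain and 4 higher in liver of 83 tested, with a median log2 fold change of 6.03. The 4 were kcnk4a, trpv1, kcnip3b and kcnd3. Of 34 channel partner genes, which anchor, modify or restore the gradients for channels, 26 were called higher in brain and 5 higher in liver. Beside both lists, 42.8% of all genes tested were called higher in brain and 33.3% higher in liver. As with the members, genes read in brain alone enter these counts through the tissue where they are high. Neither list was restricted to genes that pass the filter in both tissues. The partners with the smallest p were ank2a, dpp10, atp1a3a and atp2b3, all higher in brain at log2 fold changes of 6.38 to 9.63.

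Between genotypes, no member passed the threshold in brain. This held for double mutants against atm mutants, double mutants against WT and atm mutants against WT, each with 78 members among 20273 genes tested. Over all genes, 0%, 0.00493% and 0.00987% were called in these comparisons, so 0 of 78 is near the background. Unadjusted p was under 0.05 for 8, 11 and 7 members (10.3%, 14.1% and 8.97%), against 5.31%, 5.4% and 8.79% of all genes. DESeq2 called 0, 1 and 0 members, beside 0%, 0.106% and 0.123% of all genes. The summed CPM of all members was 3684 to 4483 in double mutant, 3979 to 4429 in atm mutant and 3677 to 4765 in WT brains. The members with the smallest p are given as values, not calls.

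The smallest p in brain belonged to kcnj10, the glial Kir4.1 gene. Double mutant brains had 431.2, 541.2, 494.2 and 453 CPM, atm mutant brains 418.4, 437.5, 378.8 and 349.6 CPM, and WT brains 368.5, 380.9, 386.9 and 382.6 CPM. All 4 double mutants were above all 4 WT fish, at a log2 fold change of 0.33 (SE 0.0702, unadjusted p = 4.4e-04, adjusted p = 0.613 by edgeR). DESeq2 called it, with an adjusted p of 1.8e-04. Against atm mutants the log2 fold change was 0.28 (SE 0.0701, adjusted p = 0.819), and atm mutant 2 overlapped the double mutants. The 16 markers of astroglia and oligodendrocytes summed to 9418 to 14530 CPM in double mutants, 10650 to 14340 CPM in atm mutants and 8425 to 10930 CPM in WT brains. None of the 15 tested was called between double mutants and WT, and their median log2 fold change was 0.22. The part of these cells in the kcnj10 values was not tested.

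The small-conductance channel gene kcnn1, which shapes the pause after an action potential in mammals, showed a split within 1 group. Double mutants 1, 2 and 3 had 3.65, 2.88 and 3.22 CPM and double mutant 4 had 7.29 CPM, against 7.33, 7.21, 5.71 and 5.97 CPM in atm mutants and 6.33, 6.02, 5.78 and 6.21 CPM in WT fish. Double mutant 4, the fish with the high mb21d1 RNA, lay with the other genotypes. The log2 fold change against atm mutants was -0.64 (SE 0.245, adjusted p = 0.819), and without that fish it was -1.02 (SE 0.147, adjusted p = 0.28).

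For cacna1s, the double mutants had 4.18, 4.09, 3.59 and 3.78 CPM, the atm mutants 4.55, 4.77, 4.52 and 5.3 CPM, and the WT fish 8.97, 8.69, 3.92 and 5.58 CPM. WT males 1 and 2 were above every other brain, and the groups overlapped (log2 fold change of double mutants over WT -0.74, SE 0.193, adjusted p = 0.891). This gene marks skeletal muscle, and the 15 muscle markers summed to 998.2 and 680.8 CPM in WT males 1 and 2, 225.9 and 432.9 CPM in WT females, 200.9 to 506 CPM in double mutants and 177.2 to 404 CPM in atm mutants. Of 14 tested, 13 had a negative log2 fold change in double mutants over WT, 3 at an unadjusted p under 0.05 and 0 called. The part of muscle RNA in the cacna1s values was not tested.

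Among the next smallest p were those of the auxiliary genes kcne4 and kcnmb4, the Kv pore gene kcnh4 and itprip. The beta subunit gene kcne4, which inhibits some Kv channels in mammals, averaged 8.04 ± 1.03 CPM in double mutant, 8.65 ± 0.496 CPM in atm mutant and 6.1 ± 1.18 CPM in WT brains (SD, n = 4 each). Its log2 fold change over WT was 0.4 (SE 0.137, adjusted p = 0.891) in double mutants and 0.5 (SE 0.137, adjusted p = 0.54) in atm mutants. Both comparisons use the same WT fish. In atm mutants against WT, kcnh4 was at -0.25 (SE 0.0849) and kcnmb4, a BK beta subunit, at 0.36 (SE 0.145), each with an adjusted p of 0.54. In double mutants against atm mutants, itprip was at 0.39 (SE 0.134), with an adjusted p of 0.819.

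**Figure D3:**
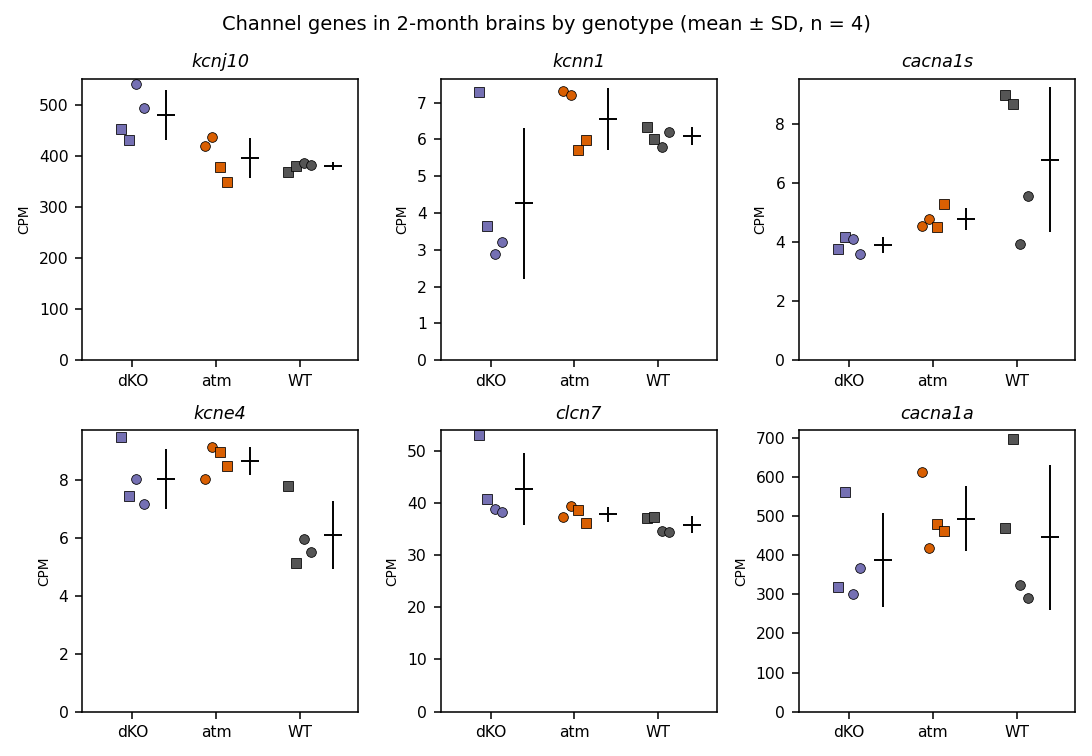
CPM (y axis) of 6 channel genes in brains of double mutants (dKO), atm mutants and WT fish at 2 months, with squares for males, circles for females, and the mean ± SD of n = 4 at the right of each group. The 4 double mutants lie above all WT fish for kcnj10, and 1 double mutant stands away from the other 3 for kcnn1 (7.29 CPM) and clcn7 (53.1 CPM).

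Calcium channel pore genes varied between brains in a way that crossed the genotypes. Of cacna1a, double mutants had 563.2, 300.6, 368.2 and 318.4 CPM, atm mutants 612.3, 419.6, 479.4 and 462.1 CPM, and WT fish 469.9, 698.3, 323.9 and 290.8 CPM. Of cacna1c, the values were 273.1, 97.2, 123.5 and 113.4 CPM, 250.5, 213.4, 237 and 174.7 CPM, and 204.2, 269.5, 108.1 and 103.2 CPM in the same order. Double mutants 2 to 4 and WT females 3 and 4 were low in both genes, and double mutant 1, WT males and all atm mutants were high. The 5 low libraries were all among the 6 deepest brain libraries, and the other one, atm mutant 3, was high. With these 6 libraries coded as a depth covariate, an alternative chosen after the data were seen, still 0 members were called in each brain comparison of genotypes.

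In liver, 35 of 81 members passed the filter on low counts and 25 had at most 3 counts in every 2-month liver. Again no member was called in double mutants against atm mutants, double mutants against WT or atm mutants against WT, where 0.0433%, 0.662% and 0% of 16174 genes were called. Unadjusted p was under 0.05 for 2, 4 and 2 of the 35 (5.71%, 11.4% and 5.71%), against 11.5%, 19.5% and 10% of all genes. DESeq2 called 0, 1 and 0 members, beside 1.57%, 5.32% and 0.502% of all genes.

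The smallest p in double mutant against WT livers were those of trpm7, cacna1a, itpr2 and cacng6, all lower in double mutants by their values. For trpm7, double mutants had 26.6 and 28.4 CPM in males and 31.4 and 23.5 CPM in females, atm mutants 28.2 CPM in the male and 38.8 and 44.9 CPM in the females, and WT fish 27.4 and 33.1 CPM in males and 73.4 and 77.1 CPM in females. The WT females were above every other liver, and WT males lay within the double mutant range or just above it. The log2 fold change of double mutants over WT was -0.8 (SE 0.253, adjusted p = 0.137 by edgeR, 0.0498 by DESeq2). The double mutant effect on trpm7 in females minus that in males was -1.31 (SE 0.277, adjusted p = 0.0926). DESeq2 called this difference (adjusted p = 0.00234). With 1 liver left out it was between -1.53 and -1.115 by edgeR. Leaving out any WT or double mutant liver leaves 1 library of that sex and genotype, so no calls are given for those fits. For this difference of effects 0 of 47 tested members were called, against 0.319% of 17849 genes, with 3 members (14.6% of all genes) at an unadjusted p under 0.05 and 1 called by DESeq2. DESeq2 called 3.4% of all genes for it.

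The log2 fold changes of the other 3 genes in double mutants over WT were -0.76 for cacna1a (SE 0.243, adjusted p = 0.141), -0.35 for itpr2 (SE 0.129, adjusted p = 0.18) and -0.9 for cacng6 (SE 0.388, adjusted p = 0.237). Without the liver of WT male 1, cacna1a and cacng6 were called (-0.94 and -1.21, adjusted p = 0.0358 and 0.0457), beside 4.69% of all genes. In atm mutants against WT the smallest p were those of itpr2 (-0.43, SE 0.141, adjusted p = 0.425), cacnb2 (-0.62, SE 0.269), trpm7 (-0.52, SE 0.27) and clcn3 (0.43, SE 0.234). In double mutants against atm mutants they were those of cacna1a (-0.71, SE 0.26, adjusted p = 0.328), trpv4 (-0.79, SE 0.331), cacna1f (-1.42, SE 0.65) and kcnh4 (1.36, SE 0.75).

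Whether the genotype effects differed between liver and brain was tested over all 23 libraries. No member passed, of 78 tested among 21597 genes, for the double mutant effect (1.13% of all genes called), which had 13 members and 15.4% of all genes at an unadjusted p under 0.05 and 1 member called by DESeq2, or the atm effect (0.241% of all genes called), which had 5 members and 13% of all genes at an unadjusted p under 0.05 and 0 called by DESeq2. DESeq2 called 4.63% of all genes for the double mutant effect, and the member among them was kcnj10, whose double mutant effect in liver minus brain was -0.53 (SE 0.188, adjusted p = 0.167 by edgeR and 0.017 by DESeq2). The other 3 members with the smallest p for the double mutant effect were kcnk10, kcnmb4 and cacng2, and all 3 had 3 reads over the WT livers. Values for kcnk10, cacng1 and cacnb4, next to itpr2 (-0.38, SE 0.14, adjusted p = 0.237) for the atm effect, likewise rest on 1 to 3 reads over the WT livers.

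The lysosomal gene clcn7 followed single libraries. In brain it was at 40.8, 38.9, 38.4 and 53.1 CPM in double mutants, 37.3, 39.4, 38.7 and 36.2 CPM in atm mutants and 37.1, 37.4, 34.6 and 34.4 CPM in WT fish. In liver it was at 13.1, 11.6, 13.6 and 44.1 CPM in double mutants, 11.6, 12.8 and 12.2 CPM in atm mutants and 19.9, 9.8, 15.4 and 18.3 CPM in WT fish. Double mutant 4 was the highest library in both tissues, and it was also the double mutant with high mb21d1. The liver of WT male 1 had more mb21d1 than that of double mutant 4, and its 19.9 CPM of clcn7 was the next highest liver value. At 3 months, the WT female brain with 17.6 CPM of mb21d1 had 58 CPM of clcn7, against 31.6 to 37.5 CPM in the other brains. A link between the RNA of these genes was not tested. The log2 fold change of double mutants over WT in brain was 0.25 (SE 0.0897, adjusted p = 0.891), and 0.14 (SE 0.068, adjusted p = 1) without that fish.

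Sex was compared with genotype as a covariate. In brain no member was called between males and females, of 76 tested among 19883 genes, with 0.00503% of all genes called. Unadjusted p was under 0.05 for 11 members (14.5%), against 8.9% of all genes, and DESeq2 called 0. Depth was not a covariate, and the brains of both WT males had fewer counts than those of both WT females. Among the smallest p were those of kcnd1, an A-type Kv4 gene, with 27.2 ± 3.08 CPM in males and 22.4 ± 3.82 CPM in females (SD, n = 6 each), kcnj10 with 393.7 ± 39.7 and 443.5 ± 62.8 CPM, and kcnn2 with 11.9 ± 1.92 and 14.1 ± 1.42 CPM. All 3 had an adjusted p of 0.556, at log2 fold changes of 0.3, -0.15 and -0.24.

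In liver, 2 of 32 tested members were called between males and females, both lower in males, against 1.56% of 15456 genes called lower and 1.28% called higher. Unadjusted p was under 0.05 for 10 of the 32 (31.2%), against 21.6% of all genes. The P/Q-type pore gene cacna1a had 1.46 and 1.27 CPM in double mutant, 2.29 CPM in atm mutant and 1.45 and 3.16 CPM in WT males, against 3.07 and 2.45 CPM in double mutant, 4.12 and 4.82 CPM in atm mutant and 5.22 and 4.19 CPM in WT females. Within each genotype every male was below every female, and the log2 fold change was -1.01 (SE 0.212, adjusted p = 0.0373). These levels rest on 56 to 156 counts per library. The IP3 receptor gene itpr2 averaged 22.1 ± 3.97 CPM in males and 30.9 ± 5.23 CPM in females (SD, n = 5 and 6), at a log2 fold change of -0.51 (SE 0.112, adjusted p = 0.0439). It too was lower in each male than in each female of the same genotype.

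Both calls depended on single livers. The number of members called was between 0 and 3 when a liver was left out. It was 0 without atm mutant female 1 or 2, double mutant female 2 or 3, or WT female 3 or 4, and 1 without WT male 1, while cacna1a alone was lost without the atm mutant male 4 and itpr2 without double mutant male 1. Without double mutant male 4, whose hpx level lay near that of the females, cacna1a and itpr2 were called at -0.99 and -0.48 (adjusted p = 0.039 and 0.0409) among 3 members, beside 5.47% of all genes. The log2 fold change kept its sign in every case. Other members with small p had an adjusted p over the threshold. The muscle-type gene cacna1s had 1.32 ± 0.616 CPM in males and 0.37 ± 0.181 CPM in females, cacng6 0.654 ± 0.358 and 1.56 ± 0.624 CPM, cacna1d 0.858 ± 0.382 and 0.274 ± 0.113 CPM, and trpv4 10.9 ± 4.41 and 6.34 ± 1.95 CPM. Their adjusted p were 0.0683, 0.082, 0.0975 and 0.103, and DESeq2 called 7 members in all, beside 7.94% of the 23119 genes it tested.

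Among channel partners, 2 of 27 tested were called between male and female livers, against 2.84% of all genes. The gene fgf14, whose protein binds sodium channels, had 12.6 and 1.93 CPM in double mutant, 5.58 CPM in atm mutant and 1.01 and 1.28 CPM in WT males, against at most 0.34 CPM in the 6 females (log2 fold change 5.9, SE 0.87, adjusted p = 0.0096). In the 3-month livers, all from males, fgf14 ranged from 0.0488 to 30.7 CPM. The gene cntnap2, which clusters potassium channels on axons, was lower in males at 2 months (-1.39, SE 0.264, adjusted p = 0.0251). The 11 hepatocyte markers summed to 93860 to 168400 CPM in males and 47900 to 97490 CPM in females, so the ranges overlapped. Only 2 of them, hpx and fgg, were called higher in males. The 5 pancreas markers summed to 14.4 to 124.4 CPM in males and 47.7 to 374.7 CPM in females. The 4 intestine markers summed to 44.4 to 61.4 CPM in males and 48.2 to 119.1 CPM in females, and both pairs of ranges overlapped. For each of these lists 2 markers were tested and 0 called by edgeR, with 0 pancreas markers and 1 intestine marker at an unadjusted p under 0.05. The part of liver cell makeup in the channel values was not tested.

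**Figure D4:**
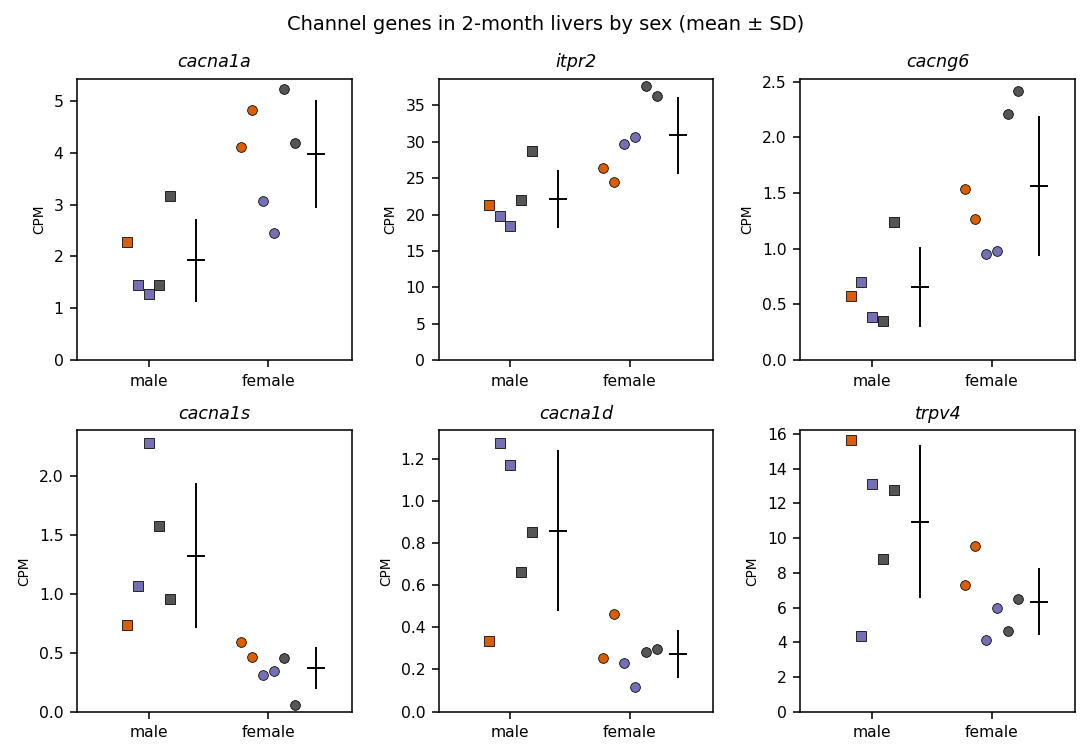
CPM (y axis) of 6 channel genes in livers of males and females at 2 months, with n = 5 males and 6 females, coloured by genotype (violet double mutants, orange atm mutants, grey WT) and the mean ± SD at the right of each group. Males average 1.93 CPM of cacna1a and 22.1 CPM of itpr2, against 3.98 and 30.9 CPM in females; the other 4 genes did not pass the threshold by edgeR.

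At 3 months, 21 of the 53 members in the table passed the filter in livers of blm mutant and WT males. None was called, nor was any of the 10374 genes tested (0%), and 1 member had an unadjusted p under 0.05, against 8.05% of all genes. DESeq2 called 0 members. The RNA of blm was at 4.88 to 7.03 CPM in blm mutants and 6.91 to 10.3 CPM in WT fish. The lowest p was that of kcnk2, the mechanosensitive TREK-1 gene, with 0.618, 1.195 and 0.873 CPM in blm mutants L3, L29 and L30, against 1.13, 2.35, 2.84 and 2.24 CPM in WT fish (log2 fold change -1.25, SE 0.398, adjusted p = 0.499). The lowest WT fish overlapped the mutants, and the values rest on 13 to 56 counts. The next were clcn7 (0.7, SE 0.331), kcnk3 (-0.71, SE 0.367) and cacna2d2 (-0.94, SE 0.507). For clcn7, blm mutants had 57.9, 20.2 and 25 CPM, against 23.1, 21.3, 21.1 and 19.3 CPM in WT fish. The high value was that of L3, the library with the highest mb21d1 in this table, and without it the log2 fold change was 0.09 (SE 0.151). The pancreas gene cpb1 was at 489 and 620.4 CPM in WT livers L19 and L7, against at most 127.3 CPM in the other livers. L19 and L7 also had the most kcnk3 (2.09 and 1.77 CPM), while cacna2d2 was highest in L19 and L33 (4.99 and 4.5 CPM). The part of pancreas RNA in the channel values was not tested.

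In the 3-month brains, 52 of 53 members passed the filter and none was called between cgas mutants and WT fish by edgeR, against 0.463% of 13825 genes. Unadjusted p was under 0.05 for 7 members (13.5%), against 8.39% of all genes. DESeq2 called 4 members, beside 4.07% of the 15766 genes it tested. Those 4 were cacng1, cacnb1, cacng6 and clcn1. In mammals cacng1 and cacnb1 encode subunits of the skeletal muscle calcium channel and clcn1 the muscle chloride channel. For cacng1, the cgas mutants had 210.5, 77.2 and 58.7 CPM in females and 172.1 and 422.8 CPM in males, against 35.1 CPM in the WT female and 37.4 CPM in the WT male. Every mutant was above both WT fish, and the mutants spread widely among themselves. The log2 fold changes were 2.26 for cacng1 (SE 0.719), 1.59 for cacnb1 (SE 0.34), 1.61 for cacng6 (SE 0.31), 1.38 for clcn1 (SE 0.383) and 0.87 for kcnj11 (SE 0.298), with adjusted p of 0.385, 0.186, 0.147, 0.29 and 0.43 by edgeR.

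Muscle RNA was also higher in every cgas mutant than in both WT fish. The cgas mutant female with the least of it was above both WT fish for cacng1, cacnb1 and cacng6. She had 20.8 CPM of clcn1 and 22.3 CPM of kcnj11, against 31.2 and 24.4 CPM in the WT male. The 14 muscle markers in the table summed to 111500, 85310 and 48440 CPM in cgas mutant females and 193600 and 294600 CPM in cgas mutant males, against 25930 CPM in the WT female and 28750 CPM in the WT male, and 177.2 to 998.2 CPM in the 2-month brains. None of the 14 was at 0 in any 3-month brain. Of the 14, 13 had a positive log2 fold change, 10 at an unadjusted p under 0.05 and 0 called, with a median of 2.09. The part of muscle RNA in the channel values was not tested. The labels' extraction text for this experiment names livers, while the tissue field says brain. The hepatocyte markers summed to 723.3 to 8238 CPM in cgas mutants and 1346 and 1931 CPM in WT fish, against 175000 to 301000 CPM in the 3-month livers. The highest of these cgas mutant sums was that of the female with the least muscle RNA. Intestine markers summed to 11.4 to 311.8 CPM in cgas mutants and 160.9 and 493.6 CPM in WT fish. By single markers, fabp2 was at 96.5 and 247.9 CPM in WT fish, against 2.98 to 6.95 CPM in cgas mutants. For cdx1b the values were 7.76 and 22.7 CPM, against at most 0.0994 CPM, while cdh17 and mttp overlapped between the genotypes. The part of these tissues in the channel values was not tested. The male with the most muscle RNA had the lowest values of the pore genes cacna1a and cacna1c, with 87.4 CPM of cacna1a and 23.3 CPM of cacna1c, against 282.9 to 560 and 115.3 to 188.6 CPM in the other cgas mutants and 323 to 349.9 and 115.5 to 127.6 CPM in WT fish. The 8 neuron markers in the table were also lowest by their sum in that male, at 2200 CPM. The sum reached 4356 CPM in the cgas mutants and was 3609 to 3708 CPM in WT fish. The part of neuron RNA in the values of the pore genes was not tested. Without that male, the log2 fold change was 1.83 for cacng1, 1.44 for cacnb1, 1.48 for cacng6 and 1.22 for clcn1, none called.

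**Figure D5:**
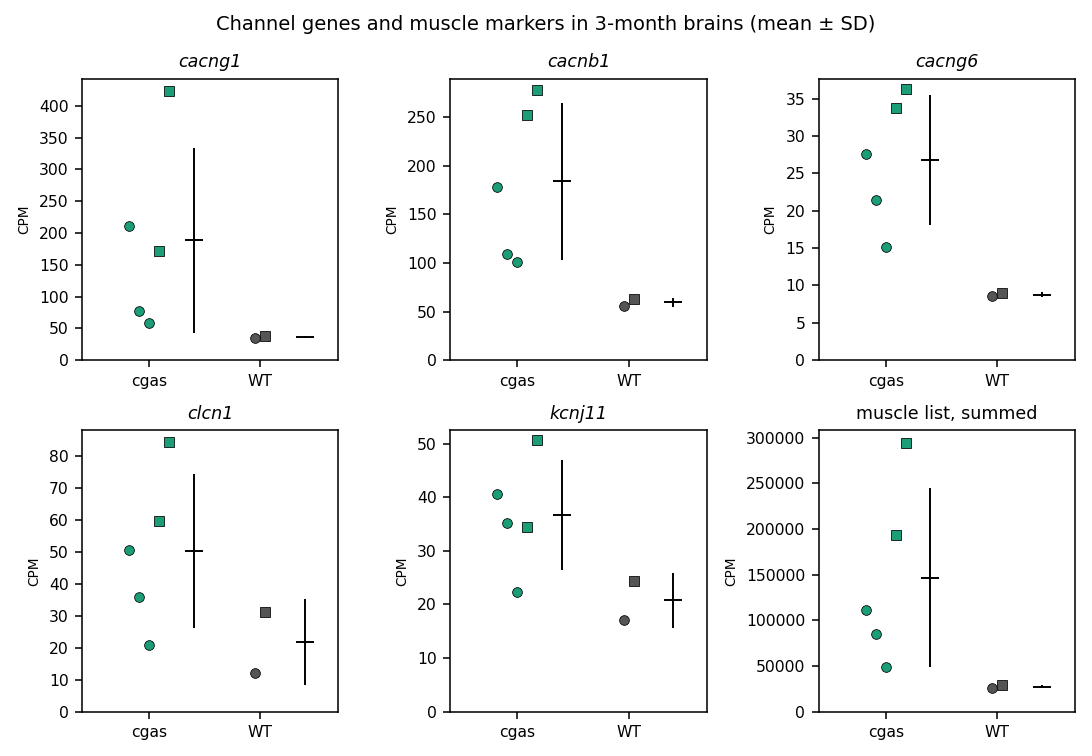
CPM (y axis) of 5 channel genes and the summed CPM of the 14 muscle markers in brains of cgas mutants (n = 5) and WT fish (n = 2) at 3 months, with squares for males, circles for females and the mean ± SD at the right of each group. All cgas mutants lie above both WT fish for cacng1, cacnb1, cacng6 and the muscle markers, which reach 294600 CPM in 1 male.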

How the data were processed

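Polyadenylated RNA of killifish brain and liver was sequenced as single-end reads, per the labels' protocols. The authors deposited 3 tables that hold, for each gene and library, an unnormalized read count. FastQC 0.11.8, Trim Galore 0.6.4, cutadapt 3.4, STAR 2.7.6a and edgeR 3.32.1 are named in the submitters' processing notes. The genome build, annotation, strandedness and counting program are not given in the sources used here, so overlapping or antisense genes and close copies are uncertain. Of 39 samples described, 37 libraries were used: 1 atm mutant liver was not analysed here and 1 cgas mutant library held 0 counts. The 3-month tables hold the first 16383 genes of the 2-month table, and 8 names turned into dates were restored.

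Counts were tested with edgeR 4.0.16 (R 4.3.3): filterByExpr, TMM scaling, robust quasi-likelihood fits and Benjamini-Hochberg adjustment over all genes, with sex or genotype as covariate. SE were recovered from the test statistic. CPM were scaled within a table and tissue, and over the 8 WT libraries together for the tissue comparison. Scripts were tested on simulated data. Alternatives were RLE and upper quartile scaling, no filter, DESeq2 1.42.0, a replicate block, each library left out and, chosen after seeing the data, a depth covariate and library totals. Per comparison, the genes named are up to 8 called members in each direction with the largest folds, or the 4 with the smallest p where fewer than 4 were called, plus examples by family, up to 4 called partner or muscle genes, and members singled out after their values were seen (clcn7, cacna1a and cacna1c in brain, kcnj11, cacna1d and trpv4). The values of some genes that the rule would name are not reported here. Members and lists were chosen with earlier results of these data known. Brain and liver samples with the same number and sex were read as 1 fish, and correlations of their deviations were -0.0358 to 0.37 over 15443 genes. The labels do not describe separate tanks or clutches, so p-values measure the spread between these samples. Intervals and floors cover counting error only.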

Additional observations from a re-analysis of the deposited data

Results flagged for a closer look

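Dixon's test was applied to 113 pairs of a gene and a group of 4 or 5 libraries, and 9 had a library far from the others. A chance rate of about 1 in 20 holds only for independent pairs with normally spread values, so the 9 are not set against it. The clcn7 RNA of double mutant 4 stood apart in both tissues, at 53.1 CPM in brain (others 38.4 to 40.8) and 44.1 CPM in liver (others 11.6 to 13.6), the double mutant libraries with high mb21d1. Double mutant 1 stood out for cacna1c in brain at 273 CPM (others 97.2 to 123.5). WT male 1 was low in brain for kcnv1 at 6.23 CPM (others 8.65 to 9.11) and for clcn4 at 74.4 CPM (others 84 to 85.7). In WT female 4 the liver was low for kcnn4 at 0.472 CPM (others 1.04 to 1.1). Double mutant female 2 had 0.903 CPM of kcnj15 in liver, from 35 counts, against at most 0.0289 CPM in the others. The remaining pairs rest on 1 or 2 reads in the liver of WT female 4, of cacnb4 (0.059 CPM) and kcnj3 (0.118 CPM). All other WT livers were at 0 for both genes, a pattern that the test always flags.

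Of the 95 LOC channel genes, 2 differed between tissues in the effect of a mutation, by an interaction test in edgeR. Of all 21597 genes tested, 1.13% were called for the double mutant effect and 0.241% for the atm effect. For trpc7b the double mutant effect in liver minus that in brain was -3.83 (adjusted p = 0.00103) and the atm effect -4.69 (adjusted p = 3.3e-04), and for kcnj12a they were -3.33 (adjusted p = 0.0465) and -5.42 (adjusted p = 0.0184). Both rest on livers of WT females 3 and 4, with 19 and 25 reads of trpc7b against at most 5 in every other liver, and 43 and 209 reads of kcnj12a against at most 27. The comparisons share those WT fish.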

How the results depend on the processing

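Members were counted again under each setting, as a check on the processing and not as results about the members. For DESeq2 the shares of all genes stand with the comparisons above. For the other settings they stand there only in part, and a count without its share is not read as a result. With library totals in place of TMM, 3 members were called higher in liver, against 8 with TMM. That scaling also moved the median log2 fold change of all genes by 2.03 towards brain. DESeq2 called 1 member in double mutants against WT in brain and in liver, 7 in the liver sex comparison, 1 in each double mutant interaction (tissue and sex) and 4 in cgas mutants. Without a filter 1 member was called by sex in liver. Leaving out a library gave 62 to 63 members higher in brain and 6 to 8 higher in liver. It gave 0 to 3 by sex in liver and 0 to 2 for double mutants against WT in liver. For the tissue difference of the double mutant effect it gave 0 to 1 (1 without the liver of double mutant 4 or of WT 1). The sex difference of that effect is not counted here, because such fits can leave 1 library in a group. The other comparisons had 0.

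Of 1155 alternative values for named genes, 1080 kept their direction and side of the threshold and 8 reversed. With library totals, itpr2 (0.526), trpm7 (1.16), clcn7 (1.4), trpc4ap (1.5) and kcnn4 (0.377, not called) reversed. With a WT liver left out, the atm effect between tissues on kcnk10 was -5.67 to 0.0947, and the double mutant effect was -5.24 to 0.00805 on kcnk10 and -4.97 to 0.114 on cacng2; the positive ends came without WT liver 4, which leaves no WT liver read of either gene. The same-numbered fish of different genotypes did not deviate together, with correlations between -0.433 and 0.29, and with the replicate block 0 members were called in each genotype comparison, with kcnj10 at 0.33 in double mutant against WT brains. Low counts limit the liver: 25 of 81 members had at most 3 counts in every 2-month liver, so differences there were not detectable at this depth.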
